A study of Rattus norvegicus with 9 samples.

Results

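Proteoglycans and the enzymes that build chondroitin sulfate form much of the extracellular matrix of the spinal cord, and 38 of their genes were followed here in uninjured (Sham), injured (SCI) and injured and stimulated (SCI + SCS) rats. The genes were chosen by symbol as 38 of the 30507 rows of the count table, and all 38 symbols were found. Hapln3 and Chpf2 each stood on 2 rows, and the row with the higher total count was used. They comprised 4 lecticans, 2 transmembrane chondroitin sulfate proteoglycans (CSPGs), 4 link proteins, 2 tenascins, 3 hyaluronan synthases, 2 chain initiation enzymes, 6 chain polymerization enzymes, 7 sulfotransferases, 6 small leucine-rich proteoglycans (SLRPs) and 2 CSPG receptors.

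RNA was sequenced from the T9 to T11 segments of the cord of wild-type female Sprague-Dawley rats, 8 weeks old at purchase, with 3 rats in each group, at 35 days post-injury (dpi). Sham rats had a laminectomy at T10 with neither contusion nor electrode (the labels call them normal and untreated), SCI rats had a T10 contusion and carried a plug on the neck without an electrode inside, and SCI + SCS rats had the contusion, an epidural electrode and high-frequency spinal cord stimulation (HF-SCS) at 10 kHz and 0.12 mA for 2 h per day from 1 dpi. The paper states that its injured rats with an electrode and no current were not sequenced, so the electrode and the current cannot be told apart in the SCI + SCS group. Libraries held between 62844376 and 88358570 counts, so that the smallest level taken as measurable, 3 counts, was between 0.034 and 0.0477 CPM (a gene's counts over the library total, scaled by the TMM method for the values below), which covers counting error only.

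Perineuronal nets are condensed coats of matrix around certain neurons, built on hyaluronan to which link proteins fasten the lecticans, with tenascin-R joining the lecticans to each other. After a contusion, astrocytes and fibroblasts lay down a scar whose matrix holds tenascin-C and collagen-binding SLRPs, and chondroitin sulfate chains on the proteoglycans of such scars are known to restrain the growth of axons. The chains are begun on a xylose, polymerized by the chondroitin synthases and then sulfated, and the pattern of sulfate sets which proteins bind them. Below, Acan, Bcan, Ncan, Hapln1, Hapln4 and Tnr are called the net genes, and Tnc, Dcn, Bgn, Lum, Fmod, Ogn and Prelp the scar genes. These names are labels of lists written by hand, and the RNA of their genes does not measure nets or scars.

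Between SCI and Sham the net genes and the scar genes had log2FCs of opposite sign at 35 dpi. Both lists were drawn up with results of these data known, so this contrast is a description and was not tested. Of the 6 net genes, 5 were lower in the SCI group and 0 higher, with a median log2FC of -2.28, while 6 of the 7 scar genes were higher and 0 lower, with a median log2FC of 1.57. The contrast depends on which genes each list holds, since the scar list has no lectican and no transmembrane CSPG. Of the 4 lecticans 0 were higher and 2 lower, and of the 2 transmembrane CSPGs 0 were higher and 1 lower. Over all 38 genes, 10 rose, 12 fell and 16 did not pass the test, with a median log2FC of -0.23 against 0.02 over all 17822 genes tested. The test was edgeR's quasi-likelihood test on the 6 libraries of both groups, and a call was a Benjamini-Hochberg (BH) adjusted p under 0.05 over all genes tested. In the same comparison 24.3% of all genes tested were called higher and 25.0% were called lower, so a share of called genes like that among the 38 was common in this comparison. The count of 10 that rose fell to 3 without Sham replicate 2, without SCI replicate 2 or without SCI replicate 3, whereas the count that fell stayed between 10 and 14 without any single library. The 3 of the 10 that passed in every fit were Chst12, Chst14 and Chsy1, all enzymes of chain synthesis. The share of all genes called in each fit without a library is not given here, so these changes cannot be called particular to the 38.

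Fewer cells of a type and less RNA per cell cannot be told apart in such tissue. Beside the net genes, all 12 of 12 neuron markers were lower in the SCI group (median log2FC -2.34). Their summed level was 4849 to 10750 CPM in the Sham, 701 to 2421 in the SCI and 2205 to 3734 in the SCI + SCS libraries. Beside the scar genes, 8 of 10 fibroblast markers were higher in the SCI group (median log2FC 1.82). Their summed level was 374 to 1999.5 CPM in the Sham, 3627 to 5436 in the SCI and 2230.0 to 3636 in the SCI + SCS libraries. No marker of either list was at 0 in any library. Of the bone markers 4 of 5 tested were higher and 1 lower, with sums of 23.1 to 48.4 CPM in the Sham, 50.6 to 117 in the SCI and 29.9 to 69.9 in the SCI + SCS libraries, with Ibsp and Phex at 0 in some libraries. Of the adipocyte markers 3 of 4 tested were higher, with sums of 3.24 to 9.56, 88.39 to 116 and 27.2 to 43.7 CPM in the same order, Lep at 0 in every library and Adipoq in some. Of the Schwann cell markers 4 of 6 were higher, with sums of 4348 to 6925, 8622 to 12705 and 6704 to 14423 CPM and none at 0. Parvalbumin and motor neuron markers had 6 of 7 tested genes lower and 0 higher (median log2FC -2.17), with Isl1 at 0 in some libraries. Of the astrocyte markers 1 of 8 was higher and 2 were lower. Their sums were 3739 to 7298 CPM in the Sham, 5973 to 9170 in the SCI and 9040 to 11735 in the SCI + SCS libraries. Oligodendrocyte markers had 6 of 8 lower, and oligodendrocyte progenitor markers 4 of 6 lower and 1 higher (median log2FC -0.81). The part of these cell types in the results was not tested. Skeletal muscle markers summed to 3500.5 and 1013 CPM in SCI replicates 1 and 3 and to between 10.5 and 62.5 CPM in the other libraries. With the rows of the muscle and adipocyte markers removed before normalization, the counts of members stayed at 10 and 12. This takes out those rows alone and leaves any RNA of the members from such tissue in place, so it cannot show the part of that tissue.

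**Figure D1:**
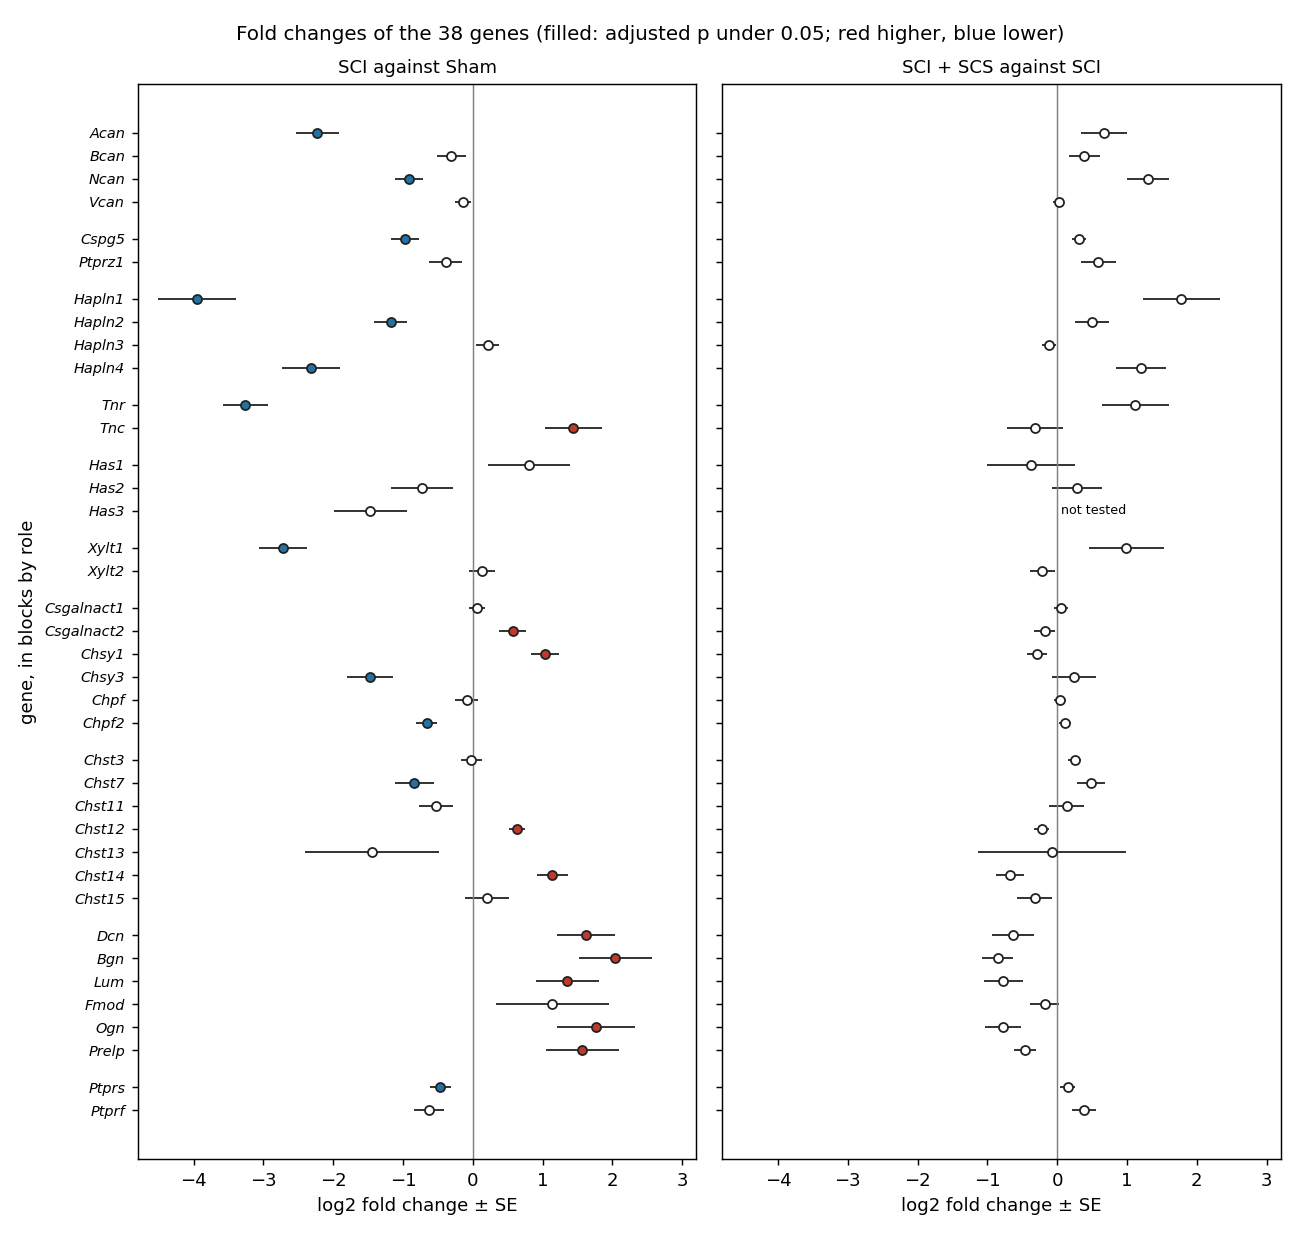
The log2 fold change of each of the 38 genes, with its standard error, in SCI against Sham (left) and in SCI + SCS against SCI (right), with genes in blocks by role. Filled points passed an edgeR BH-adjusted p of 0.05, which 22 genes did on the left (10 higher, 12 lower) and 0 on the right, where Has3 was not tested.

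Levels of different genes are compared in FPKM, the authors' values scaled by gene length and library total. In the Sham group the highest was Hapln2, the link protein of the nodes of Ranvier, at 162 ± 14.6 FPKM (mean ± SD, n = 3). It was followed by Dcn at 106 ± 50.8 and Bcan at 73.2 ± 1.66, and the spread of Dcn reached across Bcan. The lowest were Chst13 at 0.23 ± 0.0114 and Has3 at 0.101 ± 0.0224 FPKM. In the SCI group the order was led by Dcn at 331 ± 131 FPKM, Ogn at 196 ± 95 and Bgn at 155 ± 39.4, whose spreads overlapped in each neighbouring pair, and Hapln2 was at 70.4 ± 17.6. In the SCI + SCS group Dcn again came first at 216 ± 64.1 FPKM, with Hapln2 at 104 ± 13.6, Ogn at 98 ± 28.4, Bgn at 86.6 ± 24 and Bcan at 80.2 ± 11.9 within each other's spread. Among the net genes the abundant ones were Bcan and Hapln4 (30 ± 10.1 FPKM in the Sham group), while Acan, Hapln1 and Tnr were near 1 FPKM there (0.996 ± 0.323, 1.0 ± 0.393 and 1.28 ± 0.339).

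Of the lecticans, which carry chondroitin sulfate and bind hyaluronan, Acan and Ncan fell and Bcan and Vcan did not pass the test. Acan (aggrecan, ENSRNOG00000028992, chr1:132981582-133043627 in mRatBN7.2, the build that the submitters' processing notes name) was at 11.2, 8.96 and 5.5 CPM in Sham replicates 1 to 3, 2.04, 1.5 and 2.01 in the SCI libraries and 1.68, 3.73 and 3.39 in the SCI + SCS libraries. Every SCI and SCI + SCS library lay below every Sham library, and SCI + SCS replicate 1 lay among the SCI libraries. Acan was 4.69-fold lower in the SCI group (log2FC -2.23, SE 0.31, edgeR BH-adjusted p = 0.0026).

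Ncan (neurocan, ENSRNOG00000048036, chr16:19301969-19328436), a lectican of the nervous system, was at 16.9, 26.3 and 20.1 CPM in the Sham, 12.6, 11.9 and 9.32 in the SCI and 16.9, 39.1 and 26.7 in the SCI + SCS libraries. The SCI libraries were below all others, and the lowest SCI + SCS library was level with the lowest Sham library. It was 1.89-fold lower in the SCI group (log2FC -0.92, SE 0.20, edgeR BH-adjusted p = 0.011). Bcan (brevican, ENSRNOG00000018798, chr2:173454482-173467460), the most abundant lectican here, was at 311, 292 and 293 CPM in the Sham, 324, 225 and 182 in the SCI and 265, 357 and 333 in the SCI + SCS libraries. The SCI libraries were spread on both sides of the Sham libraries, and the difference did not pass (log2FC -0.31, SE 0.21, edgeR BH-adjusted p = 0.26), although it did without SCI replicate 1 (log2FC -0.57, edgeR BH-adjusted p = 0.0236). Vcan (versican), a lectican of white matter and of many connective tissues, lay between 41.8 and 53.0 CPM in all 9 libraries (log2FC -0.14, SE 0.12, edgeR BH-adjusted p = 0.357).

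The link proteins tie lecticans to hyaluronan, and 3 of the 4 fell. Hapln1 (ENSRNOG00000032002, chr2:20631640-20693777), the link protein first known from cartilage, was at 2.82, 3.62 and 1.61 CPM in the Sham, 0.292, 0.0851 and 0.145 in the SCI and 0.463, 0.482 and 0.86 in the SCI + SCS libraries, from 319 counts down to 6. The 3 groups did not overlap, with the SCI libraries lowest and the SCI + SCS libraries between. Its difference between SCI and Sham was the largest of the 38 genes, 15.4-fold (log2FC -3.95, SE 0.56, edgeR BH-adjusted p = 0.00269). Hapln4 (ENSRNOG00000049949, chr16:19333106-19341243), a brain link protein, was at 191, 127 and 95.9 CPM in the Sham, 42.1, 26.4 and 15.5 in the SCI and 46.9, 67.1 and 78.2 in the SCI + SCS libraries. Here too the groups did not overlap and the SCI + SCS libraries lay between the others. Hapln4 was 5.0-fold lower in the SCI group (log2FC -2.32, SE 0.42, edgeR BH-adjusted p = 0.00564).

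Hapln2 (ENSRNOG00000018870, chr2:173491160-173496588), which is expressed by oligodendrocytes and is no net gene, was at 262, 265 and 308 CPM in the Sham, 173, 105 and 94 in the SCI and 148, 189.9 and 186 in the SCI + SCS libraries. All injured libraries were below all Sham libraries, and SCI and SCI + SCS overlapped. It was 2.27-fold lower in the SCI group (log2FC -1.18, SE 0.24, edgeR BH-adjusted p = 0.00811), beside oligodendrocyte markers that summed to 59204 to 83634 CPM in the Sham, 17690.2 to 33223 in the SCI and 31058 to 36596 in the SCI + SCS libraries, none at 0 in any library. Hapln3, a link protein found in many tissues, did not pass (log2FC 0.21, SE 0.16, edgeR BH-adjusted p = 0.311). Each link protein gene lies next to a lectican gene, with no coding gene between them. The pairs are Acan and Hapln3 at 2.84 kb, Bcan and Hapln2 at 23.7 kb, Ncan and Hapln4 at 4.67 kb, and Vcan and Hapln1 at 67.9 kb. Both members of the pair Ncan and Hapln4 fell, whereas in each of the other pairs 1 member fell and its neighbour did not pass the test.

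The tenascins, matrix glycoproteins of 1 family, were split between net and scar. Tnr (tenascin-R, ENSRNOG00000002468, chr13:72091585-72167641), made by oligodendrocytes and some neurons, was at 6.44, 7.67 and 5.41 CPM in the Sham, 0.583, 0.965 and 0.507 in the SCI and 0.73, 2.33 and 1.39 in the SCI + SCS libraries. The injured libraries were all below the Sham libraries, and SCI and SCI + SCS overlapped. It was 9.6-fold lower in the SCI group on counts (log2FC -3.26, SE 0.32, edgeR BH-adjusted p = 0.00137). In the authors' FPKM the difference was smaller already in the means, 1.28 ± 0.339 in the Sham and 0.37 ± 0.137 in the SCI group. On log2(FPKM + 0.1), which further understates the change of low genes, the log2FC was -1.56 (limma BH-adjusted p = 0.00617). The lengths behind the FPKM of Tnr differed between libraries, as described below. Tnc (tenascin-C, ENSRNOG00000058645, chr5:77375851-77460624), a glycoprotein of developing and healing tissue, was at 5.7, 8.42 and 12.9 CPM in the Sham, 15, 21.4 and 37.8 in the SCI and 16.1, 29.1 and 13.8 in the SCI + SCS libraries. Every injured library was above every Sham library, SCI replicate 3 being the highest. Tnc was 2.72-fold higher in the SCI group (log2FC 1.44, SE 0.41, edgeR BH-adjusted p = 0.0272), and the call was lost without Sham replicate 1 or 2 or without SCI replicate 2 or 3.

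The promoters of the tenascins, related genes whose calls were opposite, are shown as the 250 bases before the start that RefSeq annotates on GRCr8, a later build than that of the counts, on the strand of the gene. Capitals mark every match on either strand to the TATA box (TATAAA), to the CCAAT box, to the GC box (GGGCGG) and to the AP-1 site (TGANTCA).
Tnr, chr13:74624776-74625025, plus strand: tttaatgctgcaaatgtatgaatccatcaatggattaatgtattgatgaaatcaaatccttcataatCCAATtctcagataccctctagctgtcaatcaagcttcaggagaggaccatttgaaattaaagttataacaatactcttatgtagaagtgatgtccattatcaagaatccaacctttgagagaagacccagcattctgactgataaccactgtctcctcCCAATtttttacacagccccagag
Tnc, chr5:82476132-82476381, minus strand: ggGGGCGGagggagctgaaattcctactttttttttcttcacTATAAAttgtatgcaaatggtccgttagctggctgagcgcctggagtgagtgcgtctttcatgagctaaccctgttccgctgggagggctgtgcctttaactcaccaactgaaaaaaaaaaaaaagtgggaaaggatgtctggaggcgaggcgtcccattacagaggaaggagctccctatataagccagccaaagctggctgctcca
The Tnr window held the CCAAT box at 183 and 24 bases before the start. The Tnc window held the letters TATAAA at 208 and the GC box at 248 bases before the start. Only exact letters were searched, so variants such as the tatataag near the end of the Tnc window are not marked. Of 33469 promoter windows in RefSeq of this length, 12.9% held the TATA box, 34% the CCAAT box, 30.5% the GC box and 6.34% the AP-1 site. Of the 38 genes 27 had an entry, and 3, 8, 14 and 0 of these held the 4 motifs in the same order. A match is a description of these letters only.

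Of the transmembrane CSPGs, Cspg5 fell and Ptprz1 did not pass. Cspg5 (neuroglycan C, a CSPG of neurons and glia) was at 58.5, 36 and 41.8 CPM in the Sham, 24.9, 24.3 and 21 in the SCI and 28.1, 28.9 and 30.2 in the SCI + SCS libraries. The groups did not overlap, with the SCI + SCS libraries in the middle, and Cspg5 was 1.96-fold lower in the SCI group (log2FC -0.97, SE 0.20, edgeR BH-adjusted p = 0.0079). Ptprz1, whose shed form is phosphacan, ranged over 95.9 to 116 CPM in the Sham, 53.5 to 104 in the SCI and 96.7 to 135 in the SCI + SCS libraries (log2FC -0.39, SE 0.24, edgeR BH-adjusted p = 0.222). The hyaluronan synthases, which make the backbone of the nets, were all low, with means between 0.101 and 0.365 FPKM in the Sham group. None of Has1, Has2 and Has3 passed in SCI against Sham (log2FC 0.80, -0.73 and -1.47, with edgeR BH-adjusted p = 0.293, 0.211 and 0.0544). Has3 rested on 15 to 31 counts in the Sham and 4 to 12 in the SCI libraries.

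**Figure D2:**
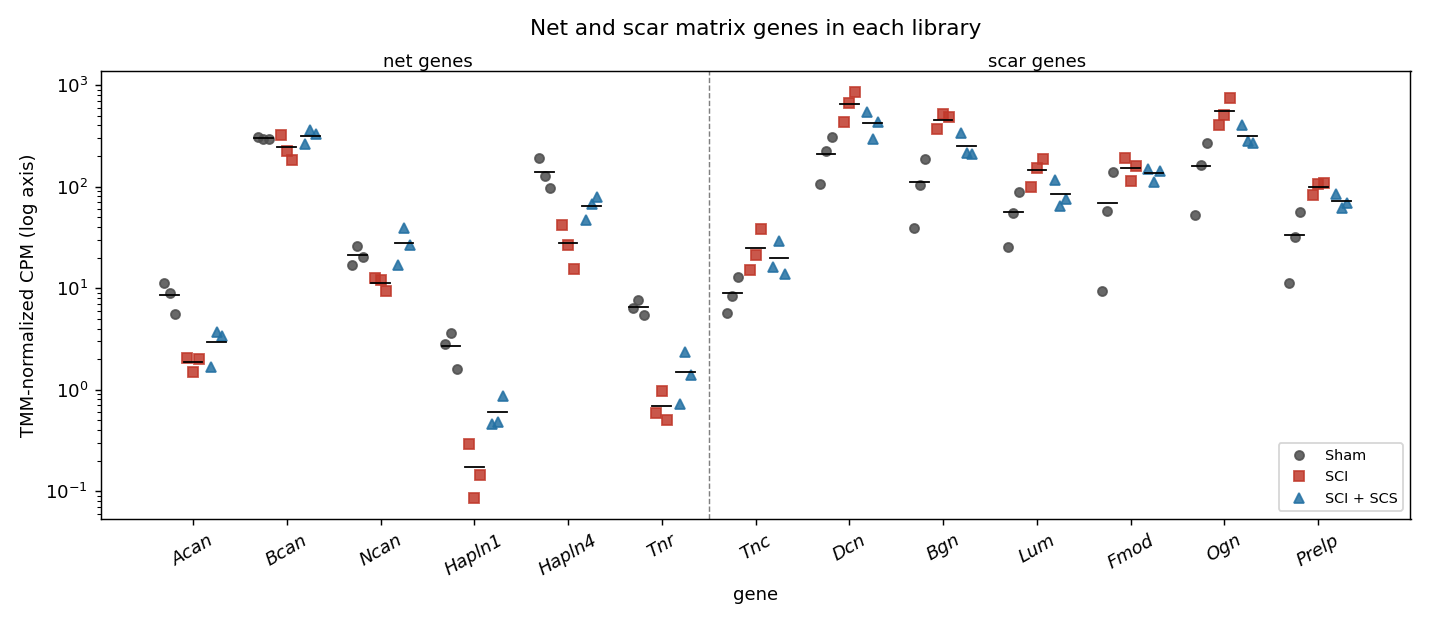
TMM-normalized CPM, on a log axis, of the 6 net genes and the 7 scar genes in each of the 9 libraries, with bars at the group means. The SCI libraries are below the Sham libraries in 5 of the 6 net genes, Bcan being the exception, and above them in 6 of the 7 scar genes, Fmod being the exception.

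The SLRPs were led by the collagen-binding Dcn and Bgn, and 5 of the 6 rose. Dcn (decorin, ENSRNOG00000004554, chr7:32281252-32321270) was at 106, 224 and 305 CPM in the Sham, 432, 674 and 864 in the SCI and 539, 292 and 432 in the SCI + SCS libraries. The SCI libraries were all above the Sham libraries, whereas the SCI + SCS libraries overlapped with both other groups. Dcn was 3.07-fold higher in the SCI group (log2FC 1.62, SE 0.42, edgeR BH-adjusted p = 0.0187). Bgn (biglycan, ENSRNOG00000055962, chrX:151197273-151209461), which carries chondroitin or dermatan sulfate as decorin does, was at 39.1, 105 and 187 CPM in the Sham, 367, 521 and 484 in the SCI and 335, 215 and 207 in the SCI + SCS libraries. The 3 groups did not overlap, with the SCI + SCS libraries between the others. Bgn was 4.11-fold higher in the SCI group (log2FC 2.04, SE 0.52, edgeR BH-adjusted p = 0.0181), the largest rise of the 38 genes.

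Lum (lumican, ENSRNOG00000004610, chr7:32358614-32365793), a keratan sulfate proteoglycan of collagen fibrils, was at 25.6, 55.4 and 89.1 CPM in the Sham, 99.7, 152 and 188 in the SCI and 115, 64.1 and 76.2 in the SCI + SCS libraries. SCI lay above Sham in every library, with a gap between the highest Sham and the lowest SCI library that was small beside the spread within either group. It was 2.56-fold higher in the SCI group (log2FC 1.35, SE 0.45, edgeR BH-adjusted p = 0.0441). Ogn (osteoglycin, ENSRNOG00000029792, chr17:15032069-15052739) was at 52.6, 163 and 267 CPM in the Sham, 401, 502 and 746 in the SCI and 403, 283 and 268 in the SCI + SCS libraries. All injured libraries were above all Sham libraries, and Ogn was 3.39-fold higher in the SCI group (log2FC 1.76, SE 0.56, edgeR BH-adjusted p = 0.0378).

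Prelp (ENSRNOG00000003120, chr13:45370533-45380270), an SLRP that binds heparan sulfate and collagen, was at 11.2, 31.7 and 56.7 CPM in the Sham, 81.8, 107 and 109 in the SCI and 85.2, 61.2 and 69.1 in the SCI + SCS libraries. Again each injured library exceeded each Sham library, and Prelp was 2.97-fold higher in the SCI group (log2FC 1.57, SE 0.52, edgeR BH-adjusted p = 0.0442). Fmod (fibromodulin, ENSRNOG00000003183, chr13:45493517-45504133), which guides collagen fibril assembly, was at 9.43, 57.9 and 140.2 CPM in the Sham, 190.4, 112 and 159 in the SCI and 150, 112 and 144 in the SCI + SCS libraries. Sham replicate 3 lay within the SCI range and Sham replicate 1 far below it, and the difference did not pass (log2FC 1.14, SE 0.81, edgeR BH-adjusted p = 0.274). In all 6 SLRP genes Sham replicate 1 was the lowest and Sham replicate 3 the highest of the Sham libraries. The fibroblast markers summed to 374, 1203 and 1999.5 CPM in the same 3 libraries, and their part in this spread was not tested. The calls of Dcn and Bgn were lost without Sham replicate 2, SCI replicate 2 or SCI replicate 3. Those of Ogn and Prelp were lost without these or SCI replicate 1, and that of Lum without Sham replicate 1 or 2, without SCI replicate 2 or 3, or with no filter on low counts (edgeR BH-adjusted p = 0.0502).

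Chain initiation by the xylosyltransferases showed 1 gene that fell and 1 that did not pass. Xylt1 (ENSRNOG00000056658, chr1:171643925-171926783) was at 4.7, 5.07 and 4.53 CPM in the Sham, 0.456, 1.08 and 0.666 in the SCI and 0.772, 2.55 and 1.02 in the SCI + SCS libraries. The injured libraries were all below the Sham libraries, SCI + SCS replicate 2 being the highest of them. Xylt1 was 6.58-fold lower in the SCI group (log2FC -2.72, SE 0.35, edgeR BH-adjusted p = 0.00215), the largest fall among the synthesis enzymes. Xylt2 did not pass (log2FC 0.13, SE 0.19, edgeR BH-adjusted p = 0.593) and was the more abundant of the pair, at 5.32 ± 0.47 FPKM in the Sham group against 0.636 ± 0.0496 for Xylt1.

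Among the 6 polymerization enzymes, Chsy1 and Csgalnact2 rose, Chsy3 and Chpf2 fell, and Chpf and Csgalnact1 did not pass. Chsy1 (ENSRNOG00000012698, chr1:119686350-119750601) and Chsy3 (ENSRNOG00000050152, chr18:52644461-52898098) are synthases that extend the chain by both of its sugars. Chsy1 was at 15.8, 17.6 and 23.1 CPM in the Sham, 30.5, 40.4 and 45.5 in the SCI and 31.7, 30.8 and 32.1 in the SCI + SCS libraries. All injured libraries were above all Sham libraries, and Chsy1 was 2.04-fold higher in the SCI group (log2FC 1.03, SE 0.20, edgeR BH-adjusted p = 0.0066). Chsy3 was at 4.32, 2.68 and 2.9 CPM in the Sham, 0.811, 1.36 and 1.45 in the SCI and 1.32, 1.19 and 1.72 in the SCI + SCS libraries. Here all injured libraries were below all Sham libraries, and Chsy3 was 2.77-fold lower in the SCI group (log2FC -1.47, SE 0.33, edgeR BH-adjusted p = 0.0116). Per length, Chsy1 was the more abundant of both synthases in every group, at 2.14 ± 0.433, 4.46 ± 1.19 and 3.69 ± 0.0885 FPKM in Sham, SCI and SCI + SCS against 0.745 ± 0.187, 0.277 ± 0.0981 and 0.328 ± 0.0656 for Chsy3.

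The promoter windows of both synthases are shown for the same reason and on the same terms as those of the tenascins.
Chsy1, chr1:129099838-129100087, plus strand: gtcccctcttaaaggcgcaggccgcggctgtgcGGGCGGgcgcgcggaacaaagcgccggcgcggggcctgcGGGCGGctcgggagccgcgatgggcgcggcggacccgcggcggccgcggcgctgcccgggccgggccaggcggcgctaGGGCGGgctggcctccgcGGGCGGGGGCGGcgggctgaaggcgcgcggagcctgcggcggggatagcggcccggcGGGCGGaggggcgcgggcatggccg
Chsy3, chr18:54842010-54842259, plus strand: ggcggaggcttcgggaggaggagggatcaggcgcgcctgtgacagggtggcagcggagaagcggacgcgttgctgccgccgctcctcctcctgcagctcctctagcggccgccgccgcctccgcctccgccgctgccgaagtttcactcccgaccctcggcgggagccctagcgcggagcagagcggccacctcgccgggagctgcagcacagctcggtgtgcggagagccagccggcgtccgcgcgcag
The Chsy1 window held 6 copies of the GC box, between 217 and 25 bases before the start. The Chsy3 window held none of the 4 motifs, which says only that these letters are not in it.

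Chpf2, a partner of the synthases, was at 39.9, 33.9 and 28.5 CPM in the Sham, 20.2, 23.9 and 21.3 in the SCI and 23.3, 23.2 and 23.7 in the SCI + SCS libraries. Every injured library was below every Sham library (log2FC -0.66, SE 0.15, edgeR BH-adjusted p = 0.0126). Csgalnact2, which adds the first galactosamine and so commits the chain to chondroitin, was at 9.49, 12.6 and 12.5 CPM in the Sham, 14.4, 16.5 and 21 in the SCI and 16, 15 and 14.6 in the SCI + SCS libraries. Every injured library was above every Sham library (log2FC 0.57, SE 0.19, edgeR BH-adjusted p = 0.0417), but the call was lost in 8 of 16 other fits, among them both on FPKM. Chpf, the most abundant polymerization gene at 28.3 ± 5.25 FPKM in the Sham group, and Csgalnact1 had log2FCs near 0 (-0.09 and 0.06, with edgeR BH-adjusted p = 0.659 and 0.692). Summed over the 6 polymerization genes, the level was 47.4 ± 6.50 FPKM in the Sham, 46.2 ± 7.54 in the SCI and 47.1 ± 1.89 in the SCI + SCS group.

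Of the 7 sulfotransferases, Chst12 and Chst14 rose and Chst7 fell. Chst14, which sulfates dermatan stretches of the chain, was at 2.46, 2.96 and 3.98 CPM in the Sham, 6.73, 6.74 and 7.55 in the SCI and 5.5, 3.47 and 4.19 in the SCI + SCS libraries. The SCI libraries lay above all others, and SCI + SCS overlapped with Sham. Chst14 was 2.21-fold higher in the SCI group (log2FC 1.14, SE 0.22, edgeR BH-adjusted p = 0.00628). Chst12, which sulfates chondroitin and was the most abundant of the 7 at 8.29 ± 0.249 FPKM in the Sham group, was at 20.9, 21.1 and 21.1 CPM in the Sham, 29.8, 31.7 and 37.4 in the SCI and 30.7, 27.7 and 26.2 in the SCI + SCS libraries. The Sham libraries were close together and below all injured libraries (log2FC 0.63, SE 0.11, edgeR BH-adjusted p = 0.00487).

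Chst7, a sulfotransferase that acts on another carbon of the galactosamine, was at 44.9, 29.4 and 26.1 CPM in the Sham, 23.1, 20.1 and 13.7 in the SCI and 22.8, 27.9 and 28.2 in the SCI + SCS libraries. The SCI libraries were below the Sham libraries, with little room between SCI replicate 1 and Sham replicate 3 (log2FC -0.84, SE 0.28, edgeR BH-adjusted p = 0.0427), and the call was lost without Sham replicate 1 or 2 or without SCI replicate 2 or 3. Chst3, Chst11, Chst13 and Chst15 did not pass (log2FC -0.02, -0.53, -1.44 and 0.20, with edgeR BH-adjusted p = 0.911, 0.105, 0.246 and 0.624). Chst13 was near the limit of depth, with 32, 47 and 46 counts in the Sham, 24, 19 and 0 in the SCI and 24, 7 and 7 in the SCI + SCS libraries. Over all 15 enzymes of initiation, polymerization and sulfation, 4 rose (Chst12, Chst14, Chsy1 and Csgalnact2) and 4 fell (Xylt1, Chsy3, Chpf2 and Chst7), shares near the 24.3% higher and 25.0% lower of all genes tested.

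**Figure D3:**
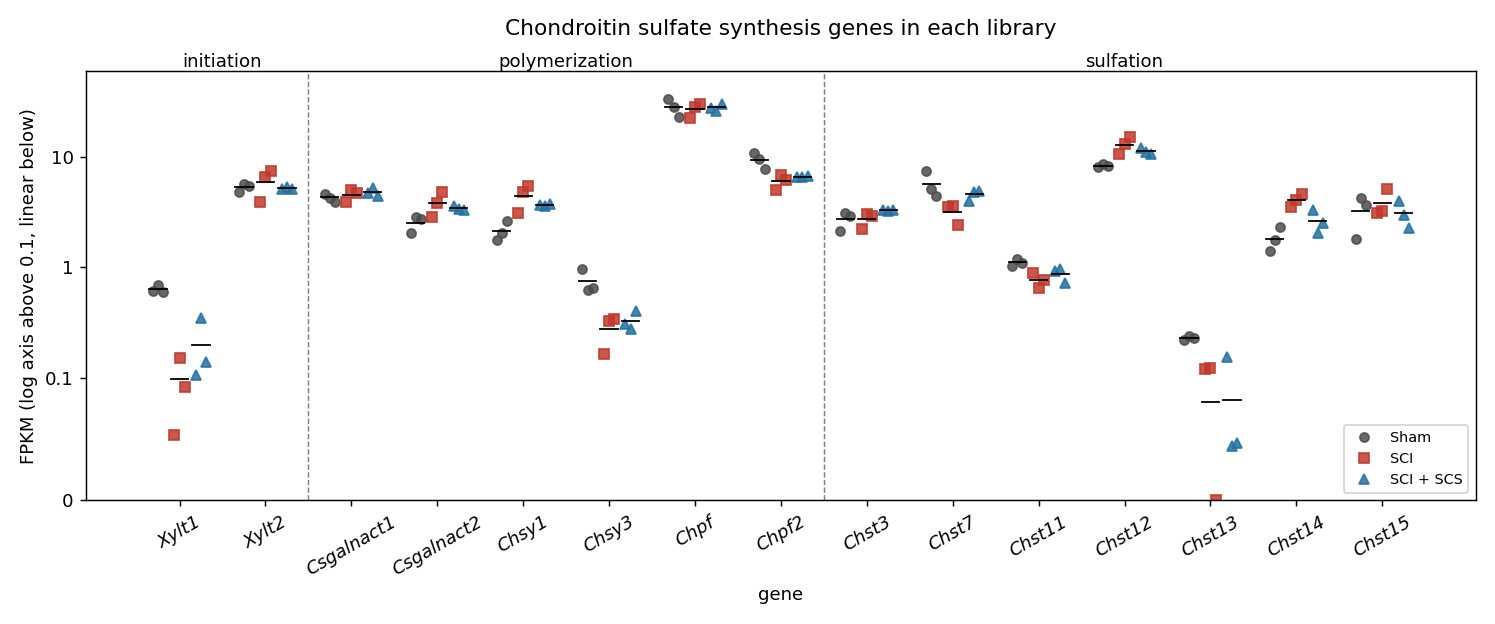
FPKM of the 15 genes of chondroitin sulfate chain synthesis in each of the 9 libraries, on an axis that is logarithmic above 0.1 and linear below, with bars at the group means. Chsy1 and Chst14 are higher in every SCI library than in any Sham library, and Xylt1 and Chsy3 are lower.

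The receptors Ptprs and Ptprf are transmembrane phosphatases through which axons respond to CSPGs. Ptprs was 169 to 227 CPM in the Sham, 131 to 161 in the SCI and 152 to 169.9 in the SCI + SCS libraries, and it fell in the SCI group (log2FC -0.47, SE 0.15, edgeR BH-adjusted p = 0.0372), a call lost without Sham replicate 1 or 2 or without SCI replicate 2 or 3. Ptprf was 58.7 to 87.6, 35.9 to 58 and 61.3 to 65.3 CPM in the same order and did not pass (log2FC -0.63, SE 0.22, edgeR BH-adjusted p = 0.0532), although it did by DESeq2 (BH-adjusted p = 0.0265).

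Between SCI + SCS and SCI, 0 of the 37 genes tested passed in edgeR, Has3 being under its filter on low counts. Of all 17663 genes tested, 0.00566% were called higher, 0% were called lower, and the next smallest edgeR BH-adjusted p was 0.0719. The log2FC of all 6 net genes was above 0, with a median of 1.16, and that of all 7 scar genes was below 0, with a median of -0.63, against 0.05 over the 37 genes and -0.01 over all genes tested. Because this comparison shares the SCI libraries with the previous one, the signs in one are not independent of those in the other. At an unadjusted p under 0.05 in edgeR, 7 members were higher (Ncan, Cspg5, Ptprz1, Hapln1, Hapln4, Chst3 and Chst7), beside 13.3% of all genes tested, and 5 were lower (Bgn, Ogn, Lum, Prelp and Chst14), beside 10.9%. DESeq2 called 2 members higher, beside 5.93% of the genes it tested, and 4 lower, beside 4.64%. Those that were higher by DESeq2 were Ncan (BH-adjusted p = 6.9e-04) and Hapln4 (0.00888). Those that were lower by DESeq2 were Bgn (BH-adjusted p = 0.00345), Ogn (0.0247), Chst14 (0.0262) and Lum (0.0482).

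All 3 SCI + SCS libraries were above all 3 SCI libraries in 6 members (Ncan, Cspg5, Hapln1, Hapln4, Chst3 and Ptprf) and below them in 2 (Bgn and Chst14), while the libraries overlapped in 29. Over all genes tested the shares were 15.6% above and 13.9% below. Ncan, the member with the smallest adjusted p, was 2.47-fold higher (log2FC 1.30, SE 0.30, edgeR BH-adjusted p = 0.0872), and without SCI + SCS replicate 1 it passed (log2FC 1.56, edgeR BH-adjusted p = 0.0499), the single member to do so in any fit that left out a library. The share of all genes called in that smaller fit is not given here, so its call cannot be called particular to Ncan. Hapln1 and Hapln4, the link proteins of the nets, were 3.43-fold (log2FC 1.78, SE 0.55, edgeR BH-adjusted p = 0.123) and 2.3-fold higher (log2FC 1.20, SE 0.36, edgeR BH-adjusted p = 0.119). Acan and Bcan, whose libraries overlapped, had values of 0.67 and 0.39 on the log2 scale with standard errors of 0.33 and 0.22.

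For Tnr the scale decided the size of the difference. On counts it was 1.12 (SE 0.48, edgeR BH-adjusted p = 0.211). On log2(FPKM + 0.1), a scale that understates the change of low genes, it was 0.07 (limma BH-adjusted p = 0.926). The FPKM of Tnr were 0.33, 0.522 and 0.259 in the SCI and 0.324, 0.295 and 0.564 in the SCI + SCS libraries, and SCI + SCS replicate 2, with the most counts of the 3 (164), had the lowest FPKM, so the lengths behind the authors' FPKM differed between libraries.

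Of the SLRPs, Bgn was 1.8-fold lower in the SCI + SCS group (log2FC -0.85, SE 0.22, edgeR BH-adjusted p = 0.0979), and its libraries did not overlap with those of SCI. Dcn, Lum, Ogn and Prelp had log2FCs of -0.63, -0.77, -0.78 and -0.46, and in each of them SCI + SCS replicate 1 reached into the SCI range, as did SCI + SCS replicate 3 in Dcn, level with the lowest SCI library. SCI + SCS replicate 1 also had the highest summed fibroblast markers of its group, 3636 CPM, just above the lowest SCI library at 3627. Fmod and Tnc, with log2FCs of -0.18 and -0.32, overlapped widely, and that of Tnc turned to 0.11 without SCI replicate 3. Beside these values, the 12 neuron markers had a median log2FC of 1.08 and the 10 fibroblast markers one of -0.79, and 0 of either passed in edgeR. By DESeq2 6 of the neuron markers were higher and 8 of the fibroblast markers were lower. Astrocyte, oligodendrocyte and oligodendrocyte progenitor markers had medians of 0.42, 0.47 and 0.40, and parvalbumin and motor neuron markers one of 0.92. Macrophage and microglia, bone and adipocyte markers had medians of -0.31, -1.07 and -1.32, and 0 of any of these lists passed in edgeR. By DESeq2, 3 of 8 astrocyte markers were higher and 1 lower, and 4 of 8 oligodendrocyte markers were higher. The part of all these markers in the members' values was not tested.

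Of the 15 synthesis enzymes, 13 had a log2FC between -0.50 and 0.50 in SCI + SCS against SCI, the others being Xylt1 (0.99, SE 0.54, edgeR BH-adjusted p = 0.31) and Chst14 (-0.67, SE 0.20, edgeR BH-adjusted p = 0.119). Chsy1 and Chsy3 were at -0.29 and 0.24 on the log2 scale, with standard errors of 0.14 and 0.31. Vcan was the closest to 0 (log2FC 0.02, SE 0.08, edgeR BH-adjusted p = 0.924).

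Against Sham, the SCI + SCS group had 2 members higher and 10 lower, beside 16.2% higher and 16.2% lower among the 17640 genes tested. The higher members were Chsy1 (log2FC 0.75, SE 0.15, edgeR BH-adjusted p = 0.0134) and Chst12 (log2FC 0.42, SE 0.09, edgeR BH-adjusted p = 0.0168). The lower members comprised 4 net genes, namely Hapln1 (log2FC -2.15, SE 0.41, edgeR BH-adjusted p = 0.0128), Tnr (log2FC -2.13, SE 0.42, edgeR BH-adjusted p = 0.0137), Acan (log2FC -1.54, SE 0.38, edgeR BH-adjusted p = 0.0266) and Hapln4 (log2FC -1.11, SE 0.30, edgeR BH-adjusted p = 0.0326), with Ncan and Bcan at log2FCs of 0.39 and 0.10 that did not pass. The other lower members were Hapln2, Cspg5, Xylt1, Chsy3, Chpf2 and Has3, with log2FCs of -0.67, -0.64, -1.72, -1.22, -0.54 and -1.70. Of the 7 scar genes 0 passed (median log2FC 1.0), while at an unadjusted p under 0.05 in edgeR 2 were higher and DESeq2 called 3 (Tnc, Dcn and Bgn). In either direction, 46.2% of all genes tested had an unadjusted p under 0.05, and DESeq2 called 32.0% of those it tested. The median log2FC was -0.05 over the 38 genes and 0.01 over all genes tested.

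These counts changed when single libraries were left out. The share of all genes called in the same smaller fits is not given here, so the changes cannot be called particular to these members. Without Sham replicate 3 the count of members higher was 6, without SCI + SCS replicate 2 it was 1, and without Sham replicate 2 or SCI + SCS replicate 1 it was 0. The count of members lower was 4 without Sham replicate 2, 3 without SCI + SCS replicate 1 or 2 and 5 without SCI + SCS replicate 3. Of the 12 calls, that of Hapln2 was kept in all 16 other fits, and that of Tnr in all but the fit without Sham replicate 2.

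To set net against scar in each rat, the FPKM of the scar genes were summed and divided by those of the net genes. The ratio was 0.811, 2.35 and 4.21 in Sham replicates 1 to 3, 6.50, 13.3 and 21.3 in the SCI libraries, and 8.24, 3.60 and 4.56 in the SCI + SCS libraries. All SCI libraries were above all Sham libraries, and SCI + SCS replicate 1 lay within the SCI range, replicate 2 within the Sham range and replicate 3 between both. On the log2 scale the ratio was 1.0 ± 1.2 in the Sham, 3.62 ± 0.86 in the SCI and 2.36 ± 0.61 in the SCI + SCS group (mean ± SD, n = 3). It is given as a description and was not tested, since both lists were drawn up with results of these data known. The scar sum was 256 ± 156 FPKM in the Sham, 845 ± 292 in the SCI and 519 ± 134 in the SCI + SCS group, and the net sum 110 ± 12.2, 67.1 ± 14.9 and 99.8 ± 16.7 FPKM. Dcn was the most abundant of the scar genes and Bcan of the net genes, so these sums follow them most closely. With both left out, the mean log2 ratio was 1.77 in the Sham, 5.95 in the SCI and 3.95 in the SCI + SCS group.

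**Figure D4:**
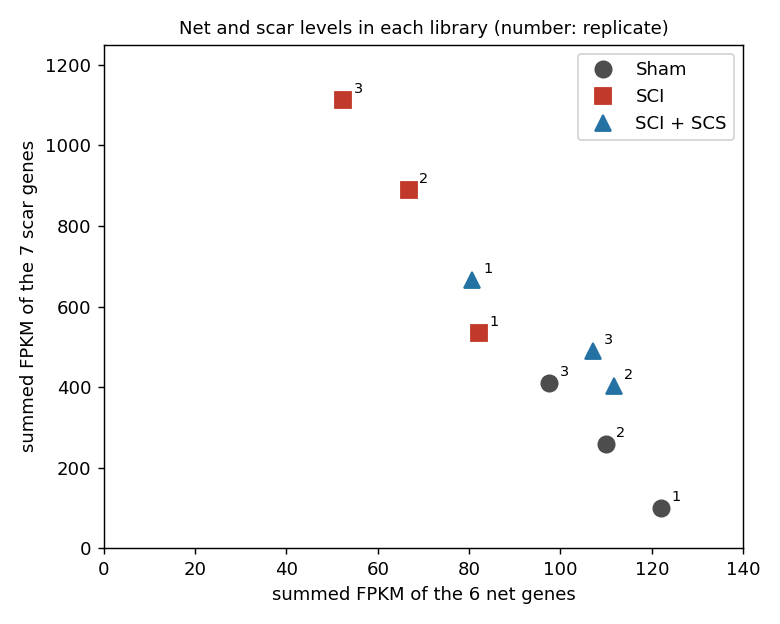
Summed FPKM of the 7 scar genes against summed FPKM of the 6 net genes in each of the 9 libraries, numbered by replicate. The SCI libraries have 52.3 to 82.1 net FPKM and the Sham libraries 97.4 to 122. SCI + SCS replicate 1 lies beside SCI replicate 1, while replicates 2 and 3 have net sums within the Sham range. The net sum follows Bcan most closely. On CPM, Acan, Hapln1, Hapln4 and Tnr were lower in every SCI + SCS library than in any Sham library.

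Other genes of the pathway, listed by role with results of these data known, were read for context. Their counts stand beside 24.3% of all genes tested called higher and 25.0% lower, and several lists were near those shares. In SCI against Sham the hyaluronan and chondroitin breakdown enzymes had 5 of 11 genes higher and 1 lower, and the heparan sulfate proteoglycans 7 of 13 higher and 2 lower. The heparan sulfate synthesis enzymes had 5 of 21 higher and 10 lower, and the other CSPGs and leucine-rich proteoglycans 4 of 13 higher and 3 lower. The hyaluronan-binding genes had 3 of 7 higher and 1 lower, the sulfate and sugar donor genes 1 of 7 higher and 2 lower, the dermatan epimerase list 1 of 3 higher and 0 lower, and the linker enzymes 0 of 3 higher and 1 lower. The largest called differences in these lists were Ndst4, a heparan sulfate sulfotransferase (log2FC -4.64, SE 1.18, edgeR BH-adjusted p = 0.0179), the leucine-rich proteoglycan gene Podnl1 (log2FC 4.25, SE 1.10, edgeR BH-adjusted p = 0.019) and Hs6st2, another heparan sulfate sulfotransferase (log2FC -3.79, SE 0.57, edgeR BH-adjusted p = 0.00316). Ndst4 and Podnl1 were low, with means of 1.30 and 0.222 CPM in the Sham group and 0.0520 and 4.39 in the SCI group.

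In SCI + SCS against Sham the same lists, in the order above, had 5 of 11, 3 of 13, 5 of 21, 1 of 13, 3 of 7, 0 of 7, 1 of 3 and 0 of 3 genes higher and 1, 1, 7, 3, 0, 1, 0 and 1 lower, beside 16.2% of all genes in each direction. The largest were Tnfaip6, whose product modifies and cross-links hyaluronan (log2FC 3.17, SE 0.39, edgeR BH-adjusted p = 0.00472), Hs6st2 (log2FC -2.33, SE 0.51, edgeR BH-adjusted p = 0.018) and the testican gene Spock3 (log2FC -1.80, SE 0.22, edgeR BH-adjusted p = 0.00439). None of these lists had a gene called in SCI + SCS against SCI by edgeR. At an unadjusted p under 0.05, the same lists in the same order had 0, 2, 8, 3, 1, 2, 0 and 0 genes higher, beside 13.3% of all genes, and 3, 3, 0, 6, 1, 1, 0 and 0 lower, beside 10.9%. DESeq2 called 0, 2, 3, 3, 1, 1, 0 and 0 higher, beside 5.93%, and 2, 1, 0, 5, 1, 0, 0 and 0 lower, beside 4.64%.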

How the data were processed

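The 9 libraries were assigned to groups by the labels, which name 1 sequencing batch. Libraries were made from poly(A) RNA captured on oligo(dT) beads, and the authors deposited raw counts per gene and an FPKM table. The submitters' processing notes name fastp 0.23.2, HISAT2 2.2.1 and mRatBN7.2, and the counting program and strand setting are not given in the sources used here.

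From the counts, each pair of groups was fitted with edgeR 4.0.16 under R 4.3.3, by TMM scaling, filterByExpr and the quasi-likelihood test without covariates, and p-values were adjusted after Benjamini and Hochberg over all genes tested. Of 38 members, 38 passed the filter in SCI against Sham and in SCI + SCS against Sham, and 37 in SCI + SCS against SCI. DESeq2 (the paper's tool, here in version 1.42.0), edgeR with no filter on low counts, and limma 3.58.1 on log2(FPKM + 1) and log2(FPKM + 0.1) were alternatives. The SE is the log2FC divided by the square root of F. The implied gene length behind the deposited FPKM varied between libraries, from 0.908 to 1.11 times a gene's median (1st to 99th percentile, genes over 500 counts).

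With 3 rats against 3, an exact permutation test cannot give a p under 0.1. The members and all gene lists were chosen with earlier results of these data known, and the lists of net and scar genes and of cell type markers were written by hand. Values in every library are given for net genes, scar genes and the 10 other called members with the largest |log2FC| in SCI against Sham. In the other pathway lists the 3 called genes with the largest |log2FC| in each comparison are named. The tests were run on simulated data before use.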

Additional observations from a re-analysis of the deposited data

How the results depend on the processing

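Across 1795 values of single members under the alternatives, 1652 kept their direction and side of the threshold, 87 lost and 26 gained a call, and 30 changed direction. Of the 34 called results, 14 were kept under all alternatives and 0 reversed. Without single libraries, the members higher and lower ranged from 3 to 9 and from 10 to 14 in SCI against Sham. In SCI + SCS against SCI they ranged from 0 to 1 and from 0 to 0. In SCI + SCS against Sham they ranged from 0 to 6 and from 3 to 10. The cause of these ranges was not tested, and such fits also have fewer rats. In SCI against Sham, requiring |log2FC| over 1 left 7 lower, and with no filter on low counts 8 members were higher, the calls of Lum and Csgalnact2 being lost. Requiring |log2FC| over 1 left 4800 of all 17822 genes tested, in either direction, against 8796 without it. In SCI + SCS against SCI, DESeq2 gave 2 higher and 4 lower, and an unadjusted p 7 and 5. In SCI + SCS against Sham, members higher were 6 by DESeq2, 5 at an unadjusted p and 0 with |log2FC| over 1. Over all genes tested there, in either direction, DESeq2 called 32.0% and an unadjusted p under 0.05 called 46.2%. Requiring |log2FC| over 1 left 2068 of 17640 genes. Same-numbered libraries share only a number (correlations of their deviations of 0.24, -0.06 and 0.20 in SCI against Sham, -0.17, 0.00 and -0.20 in SCI + SCS against SCI, and -0.33, 0.02 and -0.31 in SCI + SCS against Sham). With the replicate number as a block, 10 members were higher and 13 lower in SCI against Sham, 0 and 0 in SCI + SCS against SCI, and 0 and 2 in SCI + SCS against Sham. Over all genes tested, in either direction, the block fit called 8701, 0 and 1259 genes in the same order. The fit without a block called 8796, 1 and 5710, so the loss of calls was not particular to the members. The log2 scar to net ratio ranged from 0.47 to 1.65 (Sham), 3.22 to 4.07 (SCI) and 2.02 to 2.62 (SCI + SCS) without single libraries. From mean log2 levels it was 5.30 in SCI and 3.99 in SCI + SCS, without the most abundant gene of each list 5.95 and 3.95, and from CPM 1.64 in SCI + SCS, so only the order of the groups, the same in each, can be read from it.

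Members with no call changed direction in 30 fits, as log2FC from lowest to highest without single libraries. In SCI against Sham these were Chst3 (-0.16 to 0.06), Chst15 (-0.08 to 0.42), Chpf (-0.23 to 0.06), Csgalnact1 (-0.01 to 0.14) and Xylt2 (-0.03 to 0.31). In SCI + SCS against SCI they were Vcan (-0.04 to 0.05), Tnc (-0.72 to 0.11), Chst11 (-0.01 to 0.34), Chst13 (-0.86 to 0.42), Chpf (-0.03 to 0.08), Csgalnact1 (-0.02 to 0.10) and Has1 (-0.97 to 0.22), and Chst13 was at 0.25 under the replicate block. In SCI + SCS against Sham they were Hapln3 (-0.04 to 0.21), Chst15 (-0.39 to 0.11), Chpf (-0.17 to 0.11), Has1 (-0.15 to 0.86) and Has2 (-0.73 to 0.05), and Chpf was at 0.01 on both FPKM scales.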

Other observations

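Genes of chain breakdown and of hyaluronan binding, which the comparisons above give only as counts, include some of the larger differences around these matrices. They are named here after their values were seen. Hexa, a lysosomal hexosaminidase, was at 67.5 ± 14.6 CPM in the Sham, 315 ± 24.6 in the SCI and 219 ± 27.7 in the SCI + SCS group (mean ± SD, n = 3). It was higher in SCI than in Sham (log2FC 2.21, SE 0.18, edgeR BH-adjusted p = 0.00105), and in SCI + SCS against SCI its log2FC was -0.51 (edgeR BH-adjusted p = 0.0885, DESeq2 BH-adjusted p = 0.00255). Gusb, the lysosomal glucuronidase, was also higher in SCI than in Sham (log2FC 1.96, SE 0.20, edgeR BH-adjusted p = 0.00143), with a log2FC of -0.79 in SCI + SCS against SCI (edgeR BH-adjusted p = 0.0782, DESeq2 BH-adjusted p = 5.3e-04). Beside them, macrophage and microglia markers had 5 of 7 genes higher in SCI than in Sham, with sums of 187.5 to 357 CPM in the Sham, 1676 to 2106 in the SCI and 1445 to 1639 in the SCI + SCS libraries, and their part was not tested.

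Dse, the epimerase that turns chondroitin into dermatan, was at 11.6 ± 4.37 CPM in the Sham, 32.3 ± 8.97 in the SCI and 22.8 ± 4.58 in the SCI + SCS group, and it passed in SCI against Sham (log2FC 1.47, SE 0.33, edgeR BH-adjusted p = 0.0112) and in SCI + SCS against Sham (log2FC 0.98, SE 0.30, edgeR BH-adjusted p = 0.0462). In SCI + SCS against SCI, Tnfaip6 had a log2FC of the opposite sign to those of the scar genes. Its mean was higher in the SCI + SCS group (44.1 ± 8.78 CPM) than in the SCI group (33.4 ± 10.9 CPM), a difference within the spread of the rats (log2FC 0.41, SE 0.27, edgeR BH-adjusted p = 0.396). Of the 7 scar genes 0 passed in that comparison either. Cspg4, the NG2 proteoglycan of oligodendrocyte progenitors and pericytes that is often counted among scar CSPGs, did not pass in any comparison, with log2FCs of 0.33, -0.05 and 0.29 in SCI against Sham, SCI + SCS against SCI and SCI + SCS against Sham.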
